A study of Mus musculus with 17 samples.

Results

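De novo sites are regions of the genome where peaks of open chromatin were listed in macrophages given lipopolysaccharide (LPS) but in no resting sample. They were found in lists of ATAC-seq peaks, in which the Tn5 transposase cuts and tags DNA that nucleosomes leave exposed. Each list was trimmed to its best 24389 peaks by p-value, the length of the shortest list, and the trimmed lists were merged into 41150 sites. A de novo site had a peak in at least 3 of 5 lists at 1 h or at least 4 of 6 lists at 18 h of LPS, and overlapped no peak in the full lists of the 6 samples at 0 h. These conditions were met by 438 sites, or 1.06% of the 41150. The 1 h condition was met by 311 sites (0.756%) and the 18 h condition by 166 (0.403%), so that 272 were chosen at 1 h alone, 127 at 18 h alone and 39 at both times. The sites were thus chosen by the presence and rank of their peaks after LPS and the absence of peaks at 0 h, and those values are given as a description. Without KO replicate 1 at 18 h, a list that stands apart as described with the heights, the same conditions gave 418 sites.

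The series compared bone marrow-derived macrophages of wild-type (WT) mice with macrophages of Nur77 knockout mice (KO). Nur77 is a nuclear receptor and the product of the Nr4a1 gene. All mice were C57Bl6/J males of 6 to 12 weeks, and marrow cells were grown for 7 days with L929-conditioned medium before LPS was given at 100 ng/ml for 0, 1 or 18 h. WT at 1 h had 2 lists, of which the labels name 1 replicate 1-2, and each of the other 5 groups had 3. The knockout was made in the whole body by crossing mice with a floxed Nr4a1 gene to mice with Cre under the cytomegalovirus promoter, after which, by the study's methods, KO mice without Cre were bred. The labels nonetheless give the KO genotype as cre, and which holds for these samples is not settled by the lists. Nothing in the labels ties a list to a given mouse, so the spread between lists may be partly technical. The Nr4a1 promoter had a peak in 6 of 8 WT and 6 of 9 KO lists, which does not check the deletion, and Nr4a1 was the nearest gene of 0 de novo sites.

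Macrophages sense LPS through Toll-like receptor 4, which sends NF-kB into the nucleus and induces AP-1 factors within minutes. Autocrine interferon then drives STAT and IRF factors over hours. Most inducible enhancers of macrophages are held ready by lineage factors such as PU.1 before any stimulus, whereas latent or de novo enhancers lack such marks at rest and are unveiled by the factors the stimulus brings in. The macrophage identity of the samples was visible in the trimmed lists, since 8 of 10 macrophage marker genes had a promoter peak in all 17 lists, while 5 of 5 T cell and 4 of 5 B cell markers had one in 0 lists. Among other types, S100a8 had a promoter peak in 15 lists, Klf1 and Col1a1 in 14, Zbtb46 in 13 and Camp and Ms4a1 in 10. The part of other cell types in the de novo sites was not tested.

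The sequences around the summits of 11 de novo sites are printed to show what lay under new peaks at the head of each class or near cytokine, chemokine and interferon genes, on the plus strand of mm10 (RefSeq GRCm38.p6 sequence), up to 100 bases on each side and without exons. Capitals mark matches to 11 motifs searched on both strands. The 1 h sites of St3gal1 and Nfkb1 and the promoter site of Ccl5 carried an NF-kB motif, and the Rapgef1 site an AP-1 motif beside NF-kB. The Cmpk2 site carried a pair of ISRE motifs and the Il1a site a C/EBP motif. No motif was found at the early Tnfsf15 and Ccl2 sites, the Il1b site or the late Fam3b and Ifit1 sites. The Nfkb1, Rapgef1 and Cmpk2 sites were added after their matches were seen.
St3gal1 site (chr15:67138704-67138904): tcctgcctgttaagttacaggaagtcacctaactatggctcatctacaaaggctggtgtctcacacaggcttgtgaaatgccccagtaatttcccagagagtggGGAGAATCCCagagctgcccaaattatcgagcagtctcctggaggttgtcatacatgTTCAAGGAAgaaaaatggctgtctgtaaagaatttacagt
Nfkb1 site (chr3:135640324-135640524): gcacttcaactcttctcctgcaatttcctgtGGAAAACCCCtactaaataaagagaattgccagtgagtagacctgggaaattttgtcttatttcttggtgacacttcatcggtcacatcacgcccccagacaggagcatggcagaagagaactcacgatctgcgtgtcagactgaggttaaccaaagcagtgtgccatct
Tnfsf15 site (chr4:63757909-63758109): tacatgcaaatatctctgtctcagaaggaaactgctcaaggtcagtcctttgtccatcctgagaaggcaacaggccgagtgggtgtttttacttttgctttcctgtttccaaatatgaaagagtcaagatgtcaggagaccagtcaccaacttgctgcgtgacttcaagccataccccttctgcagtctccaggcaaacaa
Ccl2 site (chr11:82012008-82012208): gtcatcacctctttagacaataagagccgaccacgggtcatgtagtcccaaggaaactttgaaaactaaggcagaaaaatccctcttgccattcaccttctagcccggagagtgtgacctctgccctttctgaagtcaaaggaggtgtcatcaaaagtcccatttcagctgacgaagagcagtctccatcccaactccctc
Cmpk2 site (chr12:26464437-26464637): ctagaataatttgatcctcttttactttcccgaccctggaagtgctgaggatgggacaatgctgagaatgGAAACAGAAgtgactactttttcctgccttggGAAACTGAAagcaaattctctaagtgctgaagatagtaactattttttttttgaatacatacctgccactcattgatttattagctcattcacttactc
Ccl5 site (chr11:83530519-83530677): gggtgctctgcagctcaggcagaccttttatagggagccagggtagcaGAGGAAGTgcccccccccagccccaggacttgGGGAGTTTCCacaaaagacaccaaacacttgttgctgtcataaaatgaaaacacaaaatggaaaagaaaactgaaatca
Rapgef1 site (chr2:29629488-29629688): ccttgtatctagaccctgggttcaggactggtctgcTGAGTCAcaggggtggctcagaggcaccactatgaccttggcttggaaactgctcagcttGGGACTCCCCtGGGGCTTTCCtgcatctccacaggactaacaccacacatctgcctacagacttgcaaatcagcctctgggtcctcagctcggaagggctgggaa
Il1a upstream site (chr2:129315982-129316182): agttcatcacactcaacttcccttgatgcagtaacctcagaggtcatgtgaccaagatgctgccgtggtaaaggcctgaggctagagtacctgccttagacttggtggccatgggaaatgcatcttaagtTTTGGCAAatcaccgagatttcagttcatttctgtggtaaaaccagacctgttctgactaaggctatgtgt
Il1b site (chr2:129410390-129410590): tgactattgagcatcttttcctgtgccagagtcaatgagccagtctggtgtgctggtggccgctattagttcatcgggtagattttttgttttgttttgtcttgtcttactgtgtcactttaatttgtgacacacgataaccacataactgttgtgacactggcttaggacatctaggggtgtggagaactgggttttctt
Fam3b site (chr16:97562475-97562675): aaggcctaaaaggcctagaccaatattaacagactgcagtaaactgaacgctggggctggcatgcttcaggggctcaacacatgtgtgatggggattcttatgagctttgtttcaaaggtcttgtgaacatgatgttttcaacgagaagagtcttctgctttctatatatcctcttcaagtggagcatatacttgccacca
Ifit1 site (chr19:34652100-34652300): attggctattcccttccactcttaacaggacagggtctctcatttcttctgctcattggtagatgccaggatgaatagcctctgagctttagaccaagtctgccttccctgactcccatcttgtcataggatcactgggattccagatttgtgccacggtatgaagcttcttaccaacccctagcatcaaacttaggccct

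Sites chosen at 1 h alone had largely left the best peaks by 18 h. In the trimmed lists they had a peak at 72.4 and 82.0% in WT and 88.2, 72.1 and 84.6% in KO at 1 h, and at 18 h the shares were 3.31, 1.84 and 2.94% in WT and 4.41, 6.99 and 6.99% in KO. Both the presence at 1 h and its scarcity at 18 h were set by the choice and are a description. Of the 272 sites, 227 were in no trimmed list at 18 h. In the full lists at 18 h, 144 (52.9%) had a peak in at least 1 list and 128 (47.1%) had none. Sites chosen at 18 h alone had a peak at 89.0, 90.6 and 86.6% in WT and 60.6, 81.1 and 90.6% in KO at 18 h. At 1 h these sites were at 7.09 and 4.72% in WT and 4.72, 3.94 and 3.94% in KO. Of the 127 late sites, 36 had no peak in any full list at 1 h.

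**Figure D1:**
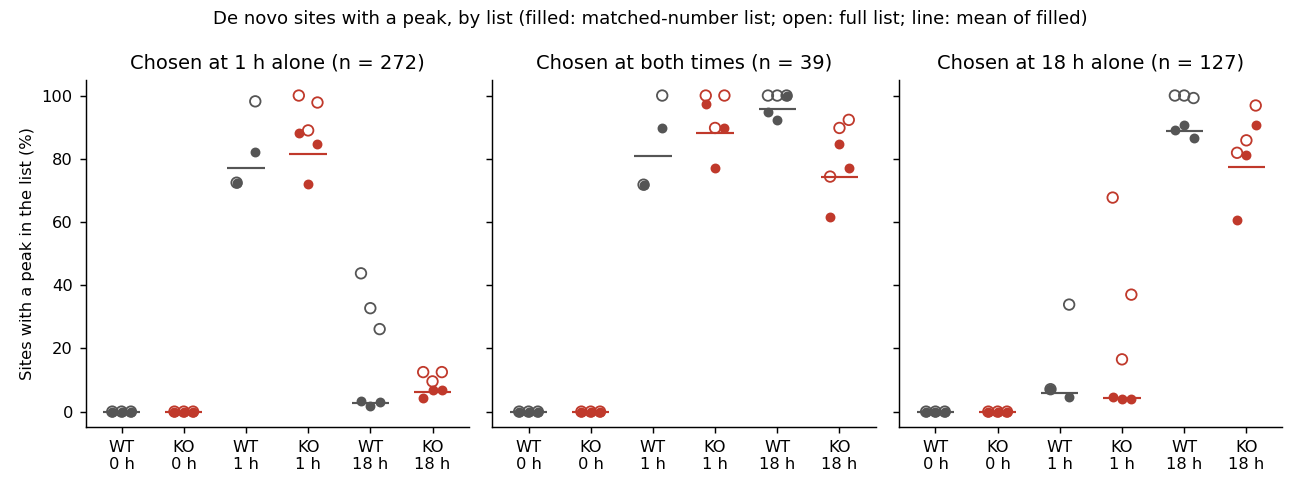
Share of de novo sites with a peak (%) in each list, for sites chosen at 1 h alone, at both times and at 18 h alone, with WT in grey and KO in red. Filled points are trimmed lists, open points full lists and lines the mean of filled points. Early sites fall to between 1.84 and 6.99% at 18 h in trimmed lists, but to between 9.56 and 43.8% in full lists.

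The height of a site was expressed as reads piled up at its summit over the background reads of that list, both recovered from the deposited fold and p-value columns. The lowest height at which a peak was listed was 4.75 to 7.40 in 4 of the 0 h lists, 16.7 in KO replicate 2 and 30.7 in KO replicate 3. Weaker peaks could not be listed in those KO replicates. Leaving out KO replicate 2 at 0 h gave 438 sites and leaving out KO replicate 3 gave 439. In the 1 h lists the lowest height listed was 8.78 to 51.7. A site could thus enter WT replicate 1-2 only at a height above the lowest listed in any 0 h list. Early sites with a peak at 1 h had median heights of 86.1 and 62.5 in WT and 61.5, 67.1 and 63.4 in KO. Late sites had medians of 28.9, 27.4 and 27.9 in WT and 76.1, 40.2 and 38.3 in KO at 18 h. These medians cover listed sites only, 127, 127 and 126 of the 127 in WT and 104, 109 and 123 in KO. The lowest height listed at 18 h was 5.45 to 7.98 in WT and 15.9 to 38.0 in KO. KO replicate 1 at 18 h stood apart, with a median peak width of 135 bp against 338 to 661 bp in the other lists, and its median height at the 10404 sites found in all lists was 162 against 80.9 to 89.4 in the other 18 h lists. In the 1 h lists the median at those 10404 sites was 154 to 189, so heights at 1 h and 18 h are set side by side without a comparison.

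**Figure D2:**
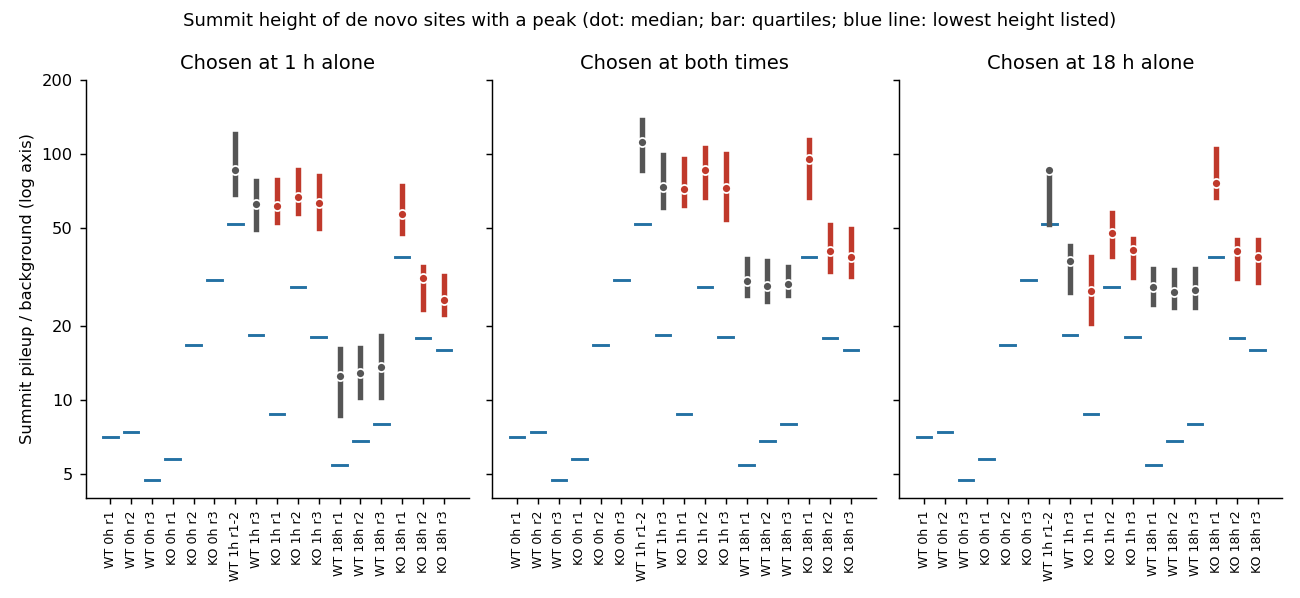
Summit height over background (log axis) of de novo sites with a peak in each full list, as median (dot) and quartiles (bar), beside the lowest height listed (blue line). Early sites have medians between 61.5 and 86.1 at 1 h and between 12.5 and 13.7 in WT at 18 h, while the lowest height listed in KO at 18 h is 15.9 to 38.0.

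Within a class, sites are ordered by the number of lists that carried them at the choosing time and then by mean rank. The first early de novo site was in an intron of St3gal1, a sialyltransferase, at chr15:67138485-67139543. Its height was 241 and 162 in WT and 196, 220 and 168 in KO at 1 h, and 9.80, 9.41 and 13.7 in WT at 18 h. KO at 18 h had a peak there in replicate 3 alone, at 25.5. The genotypes overlapped at 1 h. The second lay in an intron of Nfkb1, which encodes the p105/p50 subunit of NF-kB, at chr3:135639947-135641929. Heights there were 189 and 169 in WT and 187, 192 and 199 in KO at 1 h, with peaks of 7.62 and 12.0 left in 2 WT lists and of 47.6 in KO replicate 1 at 18 h. The next 6 were introns of Anxa5, Nek6, Fmnl2 and Frmd4b and intergenic regions nearest to Fam43a and Slc45a1. A site 23463 bp upstream of Ccl2, a monocyte chemoattractant, had heights of 68.9 and 73.6 in WT and 60.03, 67.1 and 72.5 in KO at 1 h, and no peak in any full list at 18 h.

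Sites chosen at both times were led by Ccl5, the chemokine RANTES. Its site, chr11:83520735-83531094, was 10360 bp wide, covered the whole gene and had its summit 59 bp upstream of the start. The height was 189 and 210 in WT and 199, 182 and 208 in KO at 1 h, and 127, 127 and 100 in WT and 219, 112 and 175 in KO at 18 h. The genotypes overlapped at both times. Ptges, which makes prostaglandin E2, had a site in an intron, 10035 bp upstream of its nearest protein-coding start. The heights there were 224 and 118 in WT and 180, 144 and 199 in KO at 1 h. At 18 h that site was at 30.5, 39.3 and 29.6 in WT and 124, 53.7 and 63.8 in KO. All KO lists were above all WT lists there, as they were in the median height of this class. Those medians at 18 h were 30.5, 29.1 and 29.6 in WT and 95.1, 40.2 and 38.3 in KO, and the difference was not tested. Tnfaip3, which encodes the NF-kB inhibitor A20, had a site 62481 bp upstream that was at 121 and 188 in WT and 142, 125 and 145 in KO at 1 h. It was at 34.9, 28.2 and 41.0 in WT and 114, 40.2 and 35.1 in KO at 18 h, and the genotypes overlapped. Il1a, an inflammatory cytokine, had a site 6110 bp upstream, and Il1b had one 39351 bp upstream. The others among the first 8 were nearest to Ell2, Rapgef1, A730009L09Rik and Dock10.

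Late de novo sites included several at interferon-inducible genes. The first, chr16:97558511-97566832, was intergenic, 47759 bp upstream of Fam3b, and 8322 bp wide. The Ifit1 site, chr19:34649710-34653343, near a gene that restrains viral RNA, was at 42.5, 45.3 and 38.8 in WT and 76.1, 93.9 and 73.4 in KO at 18 h, without overlap. At 1 h it had a peak of 13.2 in KO replicate 1 alone. Il10, an anti-inflammatory cytokine, had a site 22080 bp upstream at 32.1, 33.4 and 27.4 in WT and 47.6, 40.2 and 57.4 in KO at 18 h, also without overlap. Nos2, which makes nitric oxide, had a site 44543 bp upstream at 30.5, 37.6 and 42.2 in WT and 95.1, 17.9 and 41.5 in KO, with overlap. The medians over late sites, given with the heights, were also higher in every KO list than in every WT list. These height differences between genotypes were not tested. The rest of the first 8 were nearest to Cog4, St3gal5, Ms4a6d (2 sites), Slfn5 and Sde2. Of the 127 late sites, 14 (11.02%) were wider than 2 kb, among them sites at Oasl1, Ifit3, Clec4e, Slfn1, Gbp2, Gbp7 and Cfb, against 3 of 272 early sites (1.10%). Of all distal sites 10.3% were as wide, and sites opened from a weaker 0 h peak were so at 7.08% when opened at 18 h alone and 2.53% at 1 h alone. Median peak widths were 531 to 660 bp in WT and 135 to 527 bp in KO at 18 h and 338 to 457 bp at 1 h, and their part in the split was not tested.

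Most de novo sites lay away from promoters. Of the 438, 423 (96.6%) had their summit over 1 kb from a protein-coding start site, against 69.8% of the 34141 merged sites found in at least 2 lists. Sites that opened from a weaker 0 h peak were at 95.1% and sites without a peak at an LPS time at 94.0%. By position, 216 were intronic, 211 intergenic and 11 exonic. The median distance to a start site was 18742 bp. That to the nearest 0 h peak was 3656 bp, with 26 sites under 500 bp from one and 82 over 10 kb from any. The exceptions were 15 promoters, of which 5 were early, 8 late and 2 at both times. In order, the first 8 were those of Ccl5, Col15a1, Cfb (complement factor B), Slfn1, Gbp10 (an interferon-induced GTPase), Orm1 (an acute-phase protein), Hacl1 and Ms4a4c. Of the 15, Cfb had a height of 43.6, 40.2 and 46.7 in WT and 105, 35.8 and 51.0 in KO at 18 h, and its window held 2 ISRE motifs.

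Several lists of inflammatory genes held a larger share of genes with a de novo site than all genes did, as a count with no test. Of 27 cytokine genes, 8 (29.6%) had a de novo site within 100 kb that was nearest to them, among them Il1a, Il1b, Tnfsf15 and Il10. The share over all 21842 protein-coding genes was 1.66%. For NF-kB subunits and inhibitors it was 4 of 16 genes, among them Nfkb1, Tnfaip3 and Traf1, and for effector and metabolic enzymes 6 of 29 (20.7%), among them Gch1, Nos2, Pfkfb3, Ptges and Ptgs2. For the interferon response it was 7 of 42 (16.7%), with 6 of the 7 sites late, and for NF-kB genes 5 of 7 sites were early and 0 late. A late site nearest to Tnfaip3 lay 112368 bp upstream, beyond the 100 kb limit. Chemokines had 3 of 21 (Ccl2, Ccl5 and Cxcl1), AP-1 and ATF factors 3 of 20 (Batf, Fos and Fosl2), macrophage lineage genes 2 of 14 (Cebpb and Cebpd), surface receptors 2 of 27 (Clec4e and Fpr1) and signal brakes 1 of 21 (Cish). Nuclear receptors had 0 of 9 and housekeeping genes 0 of 18. Lists also differ in how many sites of any kind lie near their genes. Of the sites in at least 2 lists near NF-kB genes 7.95% were de novo, near cytokines 7.63%, enzymes 6.14%, interferon response genes 6.03%, chemokines 5.45% and AP-1 and ATF factors 3.26%, against 1.23% near all genes. The shares were 2.41% near lineage genes and 2.11% near surface receptors, and that of signal brakes, 0.877%, was below all genes.

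Of 418 pairs of neighbouring de novo sites on a chromosome, 51 (12.2%) lay within 100 kb. The densest window, on chromosome 16, held 4 sites, 3 at both times and 1 early. They lay 15042 to 26952 bp from the start of Mrpl39, the nearest protein-coding start. Only protein-coding genes were searched, so a nearer non-coding gene would not be named. Windows with 3 sites were at Nos2 and Lyrm9 (all late), at Ms4a4d and Ms4a6d (all late) and at Slc1a2 (all early). The next, near Fam129a, held 1 early and 1 late site and was level with other windows of 2. Chromosome 16 had 24.0 de novo sites per 1000 sites and chromosome X 3.795, with 0 among 11 sites on chromosome Y.

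Of the 11 motifs, NF-kB differed by the most percentage points between de novo sites and all distal sites. Within 100 bp of the summit, 103 of 438 de novo sites (23.5%, 95% Wilson interval 19.8 to 27.7) held it, against 4.82% of all sites in at least 2 lists and 5.20% (4.92 to 5.49) of those over 1 kb from a start site. The 3101 sites that opened from a weaker 0 h peak were at 9.96% (8.96 to 11.1). Among early sites the motif was at 25.7% (20.9 to 31.2), while sites that opened at 1 h alone from a weaker peak were at 11.7% (10.1 to 13.4). Among late sites it was at 18.1% (12.4 to 25.7), while sites that opened at 18 h alone from a weaker peak were at 3.87% (2.86 to 5.21). Of the 134 sites of the reverse kind, present at 0 h and without a peak in the full lists of an LPS time, 1 held the motif.

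AP-1 (TGACTCA or TGAGTCA) was at 22.8% (19.1 to 27.0) of de novo sites, close to the 21.5% of all sites over 1 kb from a start site, and at 25.2% of sites that opened from a weaker peak. The C/EBP motif (TTGCNNAA) was at 9.56% (6.61 to 13.6) of early and 19.7% (13.7 to 27.4) of late sites, beside 13.6% of distal sites. Sites that opened from a weaker peak were at 12.4% when opened at 1 h alone and 23.5% at 18 h alone. ISRE (GAAANNGAA), the element that IRF and STAT factors bind, was at 7.72% of early and 11.02% of late sites, with intervals that overlapped, beside 9.92 and 13.4% of sites opened at 1 h alone and 18 h alone from a weaker peak. PU.1 (GAGGAAGT) was at 4.57% (2.98 to 6.95), beside 9.72% (9.35 to 10.1) of distal sites and 6.45% (5.64 to 7.37) of sites that opened from a weaker peak. NBRE (AAAGGTCA), the element that Nur77 binds as a monomer, was at 7 early sites (2.57%, 1.25 to 5.22) and 0 others, beside 1.27% of distal sites and 1.39% of sites that opened from a weaker peak. STAT (TTCNNNGAA), which can overlap ISRE, was at 7.08%, E-box (CACGTG) at 2.97%, EGR (GCGTGGG) at 0.685% and CRE (TGACGTCA) at 0.228%. CTCF was at 0 of 438 (upper bound 0.869%), beside 3.57% of distal sites and 0.677% of sites that opened from a weaker peak, and 38.8% of de novo sites held none of the 11. A match is a run of letters and not a bound site.

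**Figure D3:**
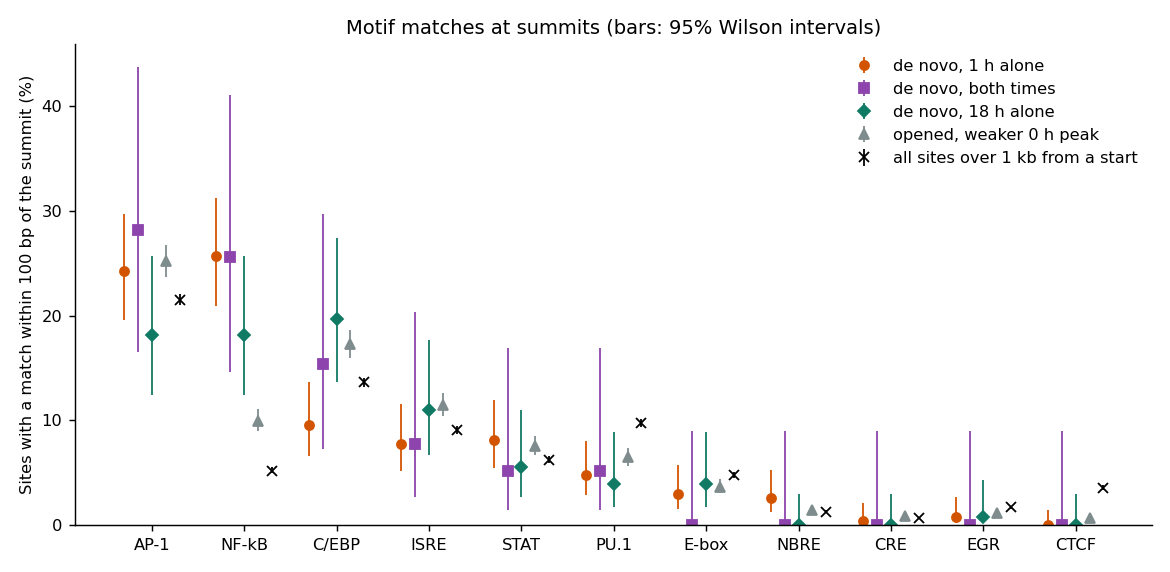
Share of sites (%) with a match to each of 11 motifs within 100 bp of the summit, with 95% Wilson intervals, for de novo sites by class, sites opened from a weaker 0 h peak and all sites over 1 kb from a start site. NF-kB separates de novo sites (25.7% early, 18.1% late) from all distal sites (5.20%).

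NF-kB matches gathered at the summit. Of 121 matches within 250 bp of early summits, 61 (50.4%) were within 50 bp, and for late sites 23 of 45 (51.1%). The AP-1 shares were 42.7 and 44.4%, the ISRE shares 32.5 and 36.4% and the C/EBP shares 30.0 and 31.0%. Positions were not measured at other sites, so whether this is particular to de novo sites was not tested.

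**Figure D4:**
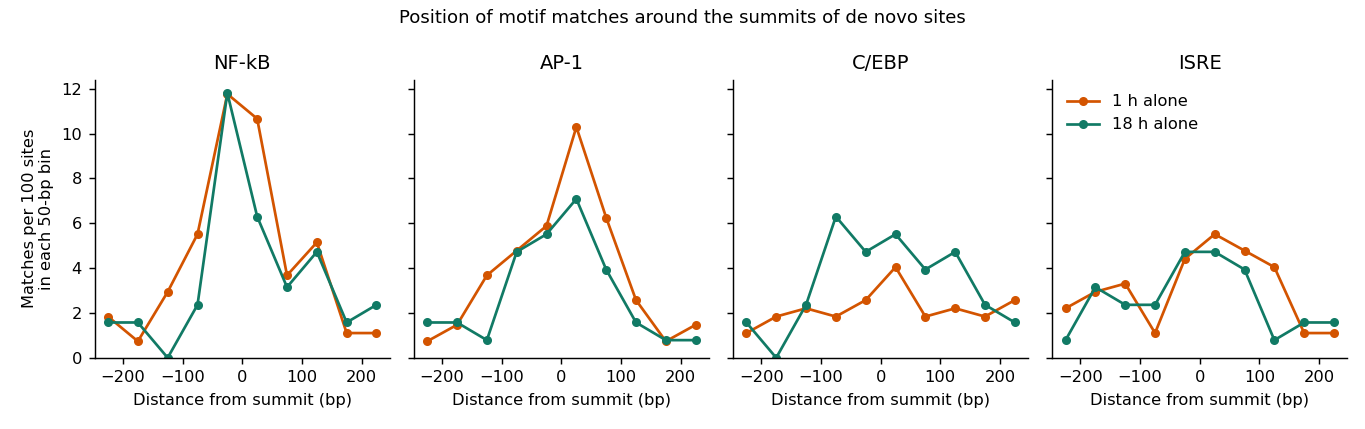
Motif matches per 100 sites in 50-bp bins by distance from the summit (bp), for de novo sites chosen at 1 h alone (orange) and at 18 h alone (green). NF-kB reaches 11.8 per 100 sites in the bin next to the summit at lower genome coordinates in both classes.

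The GC content of the de novo windows had a median of 48.0%, below the 51.7% of all sites and near the 49.3% of distal sites. At least 1 CpG was found in 345 windows (78.8%), beside 91.7% of all sites, 88.5% of distal sites and 84.7% of sites that opened from a weaker peak. Repeats covered over 50% of the window at 24 de novo sites (5.48%), beside 4.64% of distal sites.

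The genotype comparison asked whether loss of Nur77 changed how often these sites had a peak. The same lists chose the sites, which limits the difference that could appear, so the values are a description. Permutation tests of them are given at the end, and nothing is read from those. De novo sites had a peak in 53.4 and 60.3% (WT) and 64.8, 52.7 and 61.6% (KO) of cases at 1 h. At 18 h the shares were 36.3, 35.6 and 35.8% in WT and 25.8, 35.4 and 37.4% in KO. Averaged over both times, KO minus WT was -0.0761 percentage points (46.3 against 46.4%). The difference was 2.89 points at 1 h and -3.04 at 18 h, and without KO replicate 1 at 18 h the average became 1.69 points. With all deposited peaks the average was -2.80 points. The means were then 79.7% in KO and 66.6% in WT at 1 h, and 40.3% in KO and 59.1% in WT at 18 h. When a peak counted only at or above the highest of the lowest heights listed at that time, a setting chosen after seeing the data, KO was 13.2 points higher. The 18 h shares were then 38.1% in KO replicate 1, 18.3 and 20.5% in the other KO lists and 5.02 to 6.39% in WT, and the part of the height scale, which differs between lists, was not tested.

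Early sites were found at 18 h in 6.13% ± 1.49 (SD, n = 3) of cases in KO and 2.70% ± 0.765 (SD, n = 3) in WT. Every KO list was above every WT list. Since the choice held these sites to under 4 of the 6 lists at 18 h, the values are a description. The direction depended on the lists used. With all deposited peaks the shares were 11.5% ± 1.70 (SD) in KO and 34.2% ± 8.91 (SD) in WT, a difference of -22.7 points. The lowest height listed at 18 h was 5.45 to 7.98 in WT and 15.9 to 38.0 in KO, beside WT medians of 12.5 to 13.7 at these sites. The height scale differs between lists, and the part of these limits in the reversal was not tested. Late sites were found at 1 h in 4.20% ± 0.455 (SD, n = 3) in KO and 5.91% ± 1.67 (SD, n = 2) in WT, a difference of -1.71 points. It became 19.9 points with all deposited peaks and 1.44 when a peak had to cover 50% of the site, and it too is a description, as the choice held these sites to under 3 of the 5 lists.

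Few sites were carried by every list of 1 genotype and none of the other. At 1 h, 14 de novo sites (3.20%) were in all 3 KO and no WT trimmed lists, against 1.23% of the 34141 sites, and 4 (0.913%) in both WT lists and no KO list, against 0.811%. At 18 h there was 1 in each direction, against 0.278% (KO alone) and 1.33% (WT alone). The rule itself favours the first kind, since 3 KO lists at 1 h suffice to be chosen whereas 2 WT lists do not, and nothing is read from these shares. Of the 14, 11 had a peak in 1 full WT list and 3 in none, the latter nearest to Ncoa2, Uap1 and Fam43a, the last named after its values were seen. By mean rank the first 5 were nearest to Ncoa2, Uap1, Psd3, Slc44a1 and Pdzd2. The 4 WT sites at 1 h were nearest to Ms4a6d, Ttc21a, Prkcb and Uaca, and the 18 h sites to Denr (KO) and 9930022D16Rik (WT). In the full lists, the 4 WT sites had a peak in 2 or 3 KO lists, the Denr site in all 3 WT lists and the 9930022D16Rik site in 1 KO list.

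The thresholds were met narrowly by some sites. At 1 h, 112 sites were in just 3 of 5 lists, and 169 sites with no 0 h peak fell short with 2. At 18 h, 52 were in just 4 of 6 lists and 61 fell short with 3. The last members were nearest to St5, Jak2 and Slc44a1 (early, mean ranks 23340, 23517 and 23560) and to Pla2r1, Arap1 and Rassf10 (late). A further 173 sites met the LPS conditions but had a peak in 1 full 0 h list. The weakest such peaks by rank were near Il34, with 10 reads at the 0 h summit, Saa3, with 7, and Upk3b, with 8.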

How the data were processed

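ATAC-seq peak lists of 17 samples were analysed. According to the submitters' processing notes and the study's methods, the authors trimmed reads with cutadapt 2.6, mapped them to mm10 with the snakeATAC pipeline, deposited 1 peak list per sample (the peak caller is not given in the sources used here) and used DiffBind 3.0.15 for their own comparisons. The deposited columns used were the fold enrichment (a ratio of pileup to background), the −log10 p-value and the −log10 q-value. Depth is not listed, but background reads and whole-read pileups were recovered from the deposited fold and p-value columns in 100% of entries of each list (tolerance 0.05 for whole reads and 0.01 for p). Background levels ranged from 0.0581 to 2.11 reads.

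Identical intervals were collapsed, the best 24389 per list were kept (ties by fold, chromosome and start) and merged at 1 bp overlap. The members and gene lists were chosen with earlier results of these data known. Start sites and exons were those of protein-coding genes in GENCODE M21, and sequence was RefSeq GRCm38.p6. Genotypes were compared by two-sided exact permutation of lists within LPS time, with Benjamini-Hochberg adjustment over 3 tests, whose values the choice of sites bounded, so that the report gives them as descriptions. Named sites were the first 8 of each class, members nearest to listed genes (up to 6 per list), promoters (up to 8), the 5 densest windows of 100 kb, genotype all-or-none sites (up to 5 each way) and sites at the thresholds. Scripts used Python 3.11.15, numpy 2.4.6, pandas 2.3.3, scipy 1.17.1 and pysam 0.24.0, and were tested on simulated data. Intervals cover counting error only. Alternatives were other list lengths, overlap, depth adjustment, the replicate block and leaving out each list. A site that the rule names is not reported here.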

Additional observations from a re-analysis of the deposited data

How the results depend on the processing

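The number of de novo sites (438) moved to 20 with the best 10000 peaks, 2287 with all deposited peaks, 3539 when absence was asked of the trimmed 0 h lists alone and 164 when all 5 or all 6 lists were required. It stayed within 1.5 times for the other alternatives, from 368 to 507 with 1 list left out. Ties in random or reverse order, chosen after seeing the data, gave 439 and 442. The share over 1 kb from a start site became 90.4% over 2500 bp. Windows of 50 and 250 bp gave 14.2 and 30.4% for AP-1, 16.7 and 32.0% for NF-kB, 7.31 and 23.5% for C/EBP and 6.16 and 20.1% for ISRE, as shorter or longer windows hold fewer or more letters.

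The planned exact permutation tests of genotype gave p = 0.98 over both times, 0.1 for early sites at 18 h and 0.2 for late sites at 1 h (adjusted p = 0.98, 0.3 and 0.3). Since the choice bounded the values, nothing is read from these p-values or those that follow. The difference over both times changed sign with the best 10000 peaks (1.03 points, exact permutation p = 0.435), after adjustment for the number of intervals (0.242, exact permutation p = 0.885), and between -1.79 and 1.69 with 1 list left out. When a peak counted only if its height reached the highest of the lowest heights listed at that time, a choice made after seeing the data, KO was 13.2 points higher (exact permutation p = 0.01, while p was 0.435 to 1 over the other alternatives). At 18 h that share was 38.1% in KO replicate 1, which stands apart, 18.3 and 20.5% in the other KO lists and 5.02 to 6.39% in WT. The cause was not tested.

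For early sites at 18 h the difference was -22.7 points with all peaks, 0 with the best 10000 and -0.368 when a peak had to cover 50% of the site, against 3.00 to 4.29 with 1 list left out. For late sites at 1 h it was 19.9, 0 and 1.44 points, against -2.89 to -0.525. The cause was not tested. The replicate block gave -0.837 points over both times (exact permutation p = 0.875) and 3.43 for early sites at 18 h (exact permutation p = 0.25). Same-numbered lists did not deviate together (correlations of -0.0408 to 0.00391), so numbers were not taken as pairs. No paired analysis was possible at 1 h alone because the groups share 1 number.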
